A study of Mus musculus with 3 samples.

Results

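Matrix proteases cut the scaffold of proteins and proteoglycans around cells, and their inhibitors limit that cutting. The group described here was chosen by gene symbol from the matrix metalloproteinase (Mmp), Adamts, Bmp1 and tolloid-like (Tll), and Timp families, together with Reck. It lists 44 genes. Of these, 38 had at least 1 probe set annotated with that symbol alone, and they account for 73 of 34945 such probe sets and for 38 of 18193 genes. The other 6 (Mmp15, Mmp25, Mmp28, Adamts2, Adamts14 and Adamts17) were not analysed here.

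The samples were fetal kidney cells of mice carrying the transgene Tg(Meis1-EGFP)FO156Gsat on the CD-1 strain, sex unknown, at E15.5 (Theiler stage 23). In these mice control elements of Meis1, a homeobox gene, drive a green fluorescent reporter, so the sort keeps whichever cells carried it. The 3 samples form 1 group, and each pooled about 20 kidneys that were dissociated with trypsin for 5 min and sorted for the fluorescent protein. The RNA was amplified in 2 rounds before it was put on an array. The labels call the cells peripheral blastema in 1 place and nephrogenic interstitium in another.

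MMPs are zinc enzymes that are made as inactive precursors. Some are secreted and others sit in the cell membrane, where Mmp14 activates the precursor of Mmp2 with the help of Timp2. ADAMTS proteases are secreted, bind to matrix and cut large proteoglycans such as versican, procollagens or microfibril proteins. Bmp1 and the Tll enzymes remove the C-terminal propeptides of fibrillar procollagens. TIMPs block the active site of MMPs and of some ADAMTS enzymes, and Reck is an inhibitor anchored in the membrane. In the developing kidney these enzymes are known for the remodelling of matrix around the branching ureteric bud and in the stroma.

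With a single group, each gene was tested for a signal above background. Median signals over all probe sets were 143, 162 and 187 in replicates 1, 2 and 3. Background was set on each array at the 95th percentile of 71 chemosensory receptor genes, which are made in sensory neurons; the levels were signals of 136, 186 and 169. Distances below are log2 units from an array's own level, with limma's SE over 3 arrays, and a gene was called above background at an adjusted p under 0.05. Probe sets differ in how well they bind, so the level of one member was not set against that of another. The background level itself comes from probe sets of other genes, so every distance and call still carries such differences. All 8 kidney stroma markers were above background, against 57.3% of all genes. Foxd1 was among them at 7.46 ± 0.21 and Meis1 at 6.83 ± 0.21. Cap mesenchyme markers were above background in 4 of 6 cases. Meis1 is the gene behind the sort, and the lists were chosen with earlier results known. The count of stroma markers therefore does not test which cells were sorted.

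Of the 38 measured genes, 24 were above background (63.2%), against 57.3% of all genes. That share is close to the share of all genes, and the families differed in theirs. ADAMTS genes were above background in 13 of 15 cases, inhibitors in 4 of 5 and MMPs in 6 of 16. Bmp1 was above background and Tll1 was not. The median distance was 2.50 over the 38 genes and 1.51 over all genes.

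**Figure D1:**
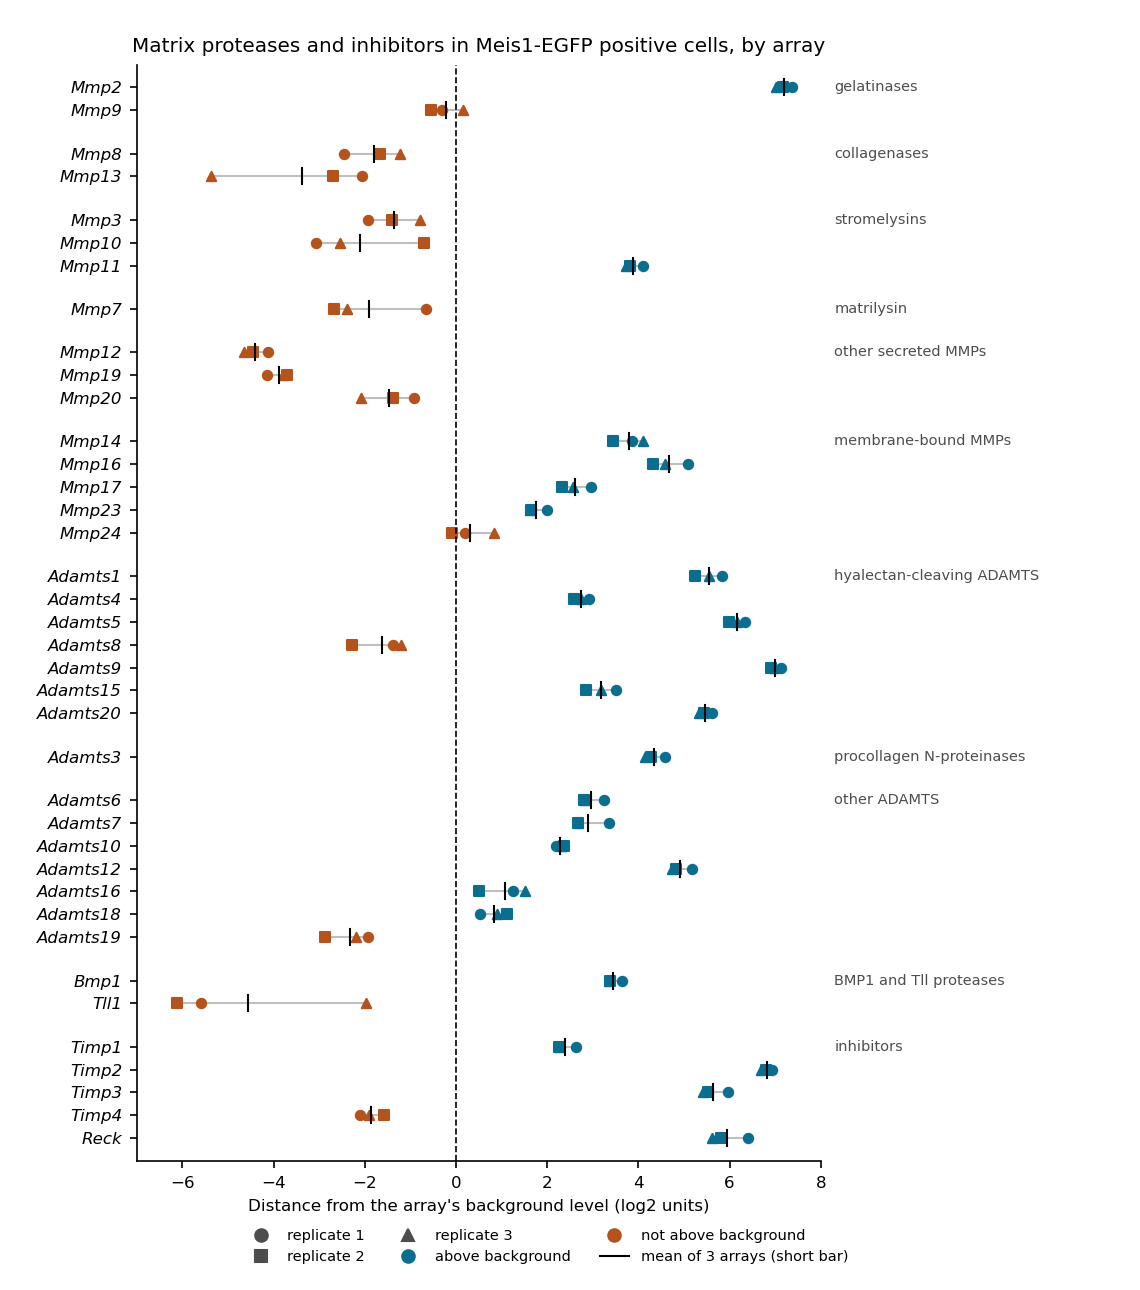
Distance of each measured gene from the background level of its array (log2 units, horizontal axis), by role. Symbols are the 3 arrays, short bars their mean, and the dashed line is the background level; the ADAMTS rows lie to the right of it except Adamts8 and Adamts19, while the secreted MMPs other than Mmp2 and Mmp11 lie at or to the left of it.

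A run of MMP genes on mouse chromosome 9 held no measured gene above background. In the RefSeq table of assembly GRCm38.p6, 10 MMP genes follow each other there with no other protein-coding gene between them: Mmp13, Mmp12, Mmp1b, Mmp3, Mmp1a, Mmp10, Mmp8, Mmp27, Mmp20 and Mmp7. The 7 that belong to the group were all below the level on all 3 arrays, with signals between 4.10 and 115. MMPs elsewhere in the genome were above background in 6 of 9 cases, against 57.3% of all genes. Those 9 genes had 20 probe sets in all, and a gene was read from its brightest. Of all genes with only 1 probe set, as in the run, 39.2% were above background. Mmp1a (-2.85 ± 0.41) and Mmp1b (-3.11 ± 0.21), which lie in the run but are outside the group, were not above background either, and Mmp27 was not analysed here. Each of the 7 genes was read by 1 probe set, and a probe set can fail, so these signals do not show that a transcript was absent.

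The promoters of the run and of the other genes are shown because they differ in letters that can be counted. RefSeq promoters (build GRCm38.p6) were given for 29 of the 44 genes, 23 of them measured. In the 250 bases before the start, the letters TGAGTCA, the binding motif of AP-1 factors, were sought on both strands. They were present in 4.46% of all promoters of that length, or in at least 1 promoter of 5.16% of the genes (6.43% of the measured genes not above background). In the run they were in 5 of 9 promoters, which belong to 5 of the 7 genes (Mmp13, Mmp12, Mmp3, Mmp10 and Mmp7). None of the 17 promoters given for 16 of the 31 measured genes outside it held them. Mmp2, Mmp9, Mmp16, Adamts5 and Bmp1 are among the genes without a promoter here. The stretches below are the last 100 bases before the start of 4 genes of the run, 5′ to 3′ on the strand of the gene, with those letters (or TGACTCA, the same motif on the other strand) in capitals.
Mmp13 (chr9:7272414-7272513, plus strand): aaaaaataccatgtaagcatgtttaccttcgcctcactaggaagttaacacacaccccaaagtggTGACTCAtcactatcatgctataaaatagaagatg
Mmp3 (chr9:7445722-7445821, plus strand): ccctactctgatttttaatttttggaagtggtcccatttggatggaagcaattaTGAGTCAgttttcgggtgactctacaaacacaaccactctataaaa
Mmp10 (chr9:7502242-7502341, plus strand): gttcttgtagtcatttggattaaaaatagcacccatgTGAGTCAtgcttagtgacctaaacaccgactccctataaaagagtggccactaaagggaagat
Mmp7 (chr9:7691990-7692089, plus strand): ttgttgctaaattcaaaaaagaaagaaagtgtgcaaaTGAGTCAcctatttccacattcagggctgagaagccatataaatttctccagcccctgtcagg

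The motif began at positions -35 in Mmp13, -46 in Mmp3 and -63 in both Mmp10 and Mmp7, counted back from the base before the start as -1. In Mmp12 it lay before the second of its 2 RefSeq starts, at -44. The other promoters of Mmp12 and Mmp7 did not hold it. The letters TATAAA, the core of a TATA box, occurred on either strand in 12.4% of all promoters and in 14.3% of the genes. They were in 5 of the 9 promoters of the run, belonging to 5 of the 7 genes (Mmp13, Mmp3, Mmp10, Mmp20 and Mmp7), where they do not overlap the AP-1 letters, and in 1 of the 16 genes outside it, Adamts1. A match of letters is a description of the sequence and does not show that a factor binds.

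The same stretch of 4 genes above background is given with each CG pair in capitals. All 4 had a CG ratio, described below, of at least 0.6. Only 8 of the 13 genes of the group above background with a promoter reached it, so these 4 do not stand for all 13. CG pairs in the stretches of the run, present in Mmp13, Mmp3 and Mmp10, were left in small letters. The capitals therefore do not compare the run with these genes.
Timp2 (chr11:118355412-118355511, minus strand): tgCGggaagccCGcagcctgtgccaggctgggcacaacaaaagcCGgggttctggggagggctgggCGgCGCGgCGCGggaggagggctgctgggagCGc
Timp3 (chr10:86300312-86300411, plus strand): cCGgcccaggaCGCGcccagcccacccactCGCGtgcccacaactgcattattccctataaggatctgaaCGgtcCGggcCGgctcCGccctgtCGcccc
Adamts9 (chr6:92943535-92943634, minus strand): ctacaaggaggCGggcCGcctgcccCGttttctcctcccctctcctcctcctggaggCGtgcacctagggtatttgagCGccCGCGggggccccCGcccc
Adamts3 (chr5:89883335-89883434, minus strand): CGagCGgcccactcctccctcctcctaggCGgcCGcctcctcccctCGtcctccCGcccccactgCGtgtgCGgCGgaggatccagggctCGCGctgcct

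CG pairs are rare in most of the mouse genome and dense in many promoters of widely used genes. Their number over the number expected from the C and G content was between 0 and 0.40 in the promoters of the run. It was at least 0.6 in 10 of the 16 measured genes outside the run that had a promoter. Among the measured genes of the group with a promoter, 8 of 13 above background and 2 of 10 not above it reached 0.6. Of those 10, 7 are the genes of the run, and of the other 3, 2 reached 0.6. Over the whole array, 75.9% of genes above background and 28.8% of those not above it did. These shares were not tested. Of the genes not above background, Tll1 (1.01) and Mmp24 (0.84) had CG-rich promoters, and Adamts12, which was above background, had a ratio of 0.26.

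**Figure D2:**
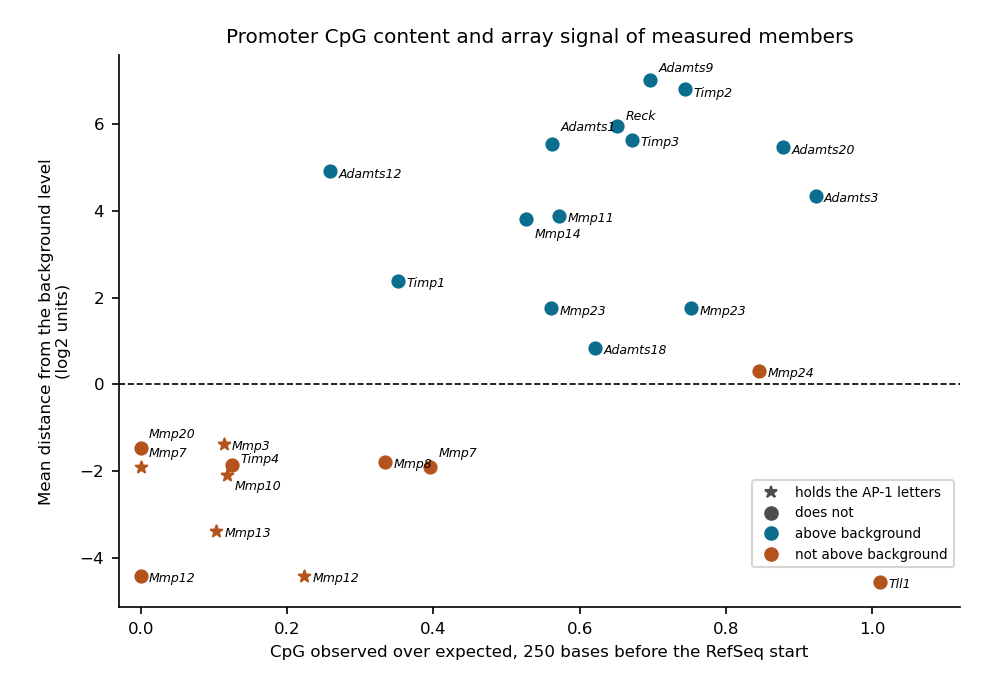
CpG pairs observed over expected in the 250 bases before each RefSeq start (horizontal axis) and mean distance from the background level (log2 units, vertical axis) for the 23 measured members with a promoter. Each point is 1 start, so Mmp7, Mmp12 and Mmp23 appear at 2; stars mark starts with the AP-1 letters, all of which lie below the dashed background line and at a ratio under 0.4.

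Mmp2, a gelatinase that cuts denatured collagen and the collagen of basement membranes, had signals of 22590, 26706 and 21944 in replicates 1, 2 and 3. It lay 7.19 ± 0.20 above background (SE, n = 3; limma adjusted p = 1.04e-06). Both of its probe sets were above background. The other gelatinase, Mmp9, which is also made by macrophages and neutrophils, had signals of 110, 128 and 189, with 1 array above its level and 2 below, and was not above background (-0.23 ± 0.23).

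Macrophage markers were above background in 1 of 8 cases (Csf1r, at 1.14 ± 0.20), with Cd68 at -0.58 ± 0.20 and Ptprc at -1.06 ± 0.32. Markers of neutrophils and mast cells were above in 1 of 7 cases, the mast cell protease Cpa3 (1.60 ± 0.28). Those counts stand beside Mmp9, Mmp8, known as neutrophil collagenase, and Mmp12, the macrophage elastase. Any link between these markers and these MMPs was not tested. Mmp8 had signals of 24.8, 58.2 and 72.1, and Mmp12 of 7.79, 8.55 and 6.70. Neither reached the level on any array.

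The other genes of the run include enzymes of bone, epithelia and teeth. Mmp13, a collagenase of cartilage and bone, had signals of 32.8, 28.4 and 4.10. The stromelysin Mmp3 had signals of 36.0, 70.4 and 98.5, and its relative Mmp10 of 16.4, 115 and 29.2. Mmp7, the matrilysin of epithelia, had signals of 86.0, 28.9 and 32.2. All of these were below the level, and the order of the arrays differed from gene to gene. Mmp20, the enamel protease, lay at -1.47 ± 0.28. Tooth, bone and cartilage markers were above background in 1 of 8 cases, the osteoblast factor Sp7 at 0.66 ± 0.22.

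Mmp11, or stromelysin-3, is activated inside the cell by furin and is known from stromal cells. Its signals were 2335, 2597 and 2240, and it lay 3.88 ± 0.20 above background (limma adjusted p = 4.54e-06). It was above its level on every array, while the other stromelysins were below theirs on every array. Furin itself lay 1.68 ± 0.22 above background. Mmp19, another secreted MMP, was below the level in both of its probe sets (-3.88 ± 0.21).

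Membrane-bound MMPs were above background in 4 of 5 cases. Mmp14, the membrane enzyme that activates the Mmp2 precursor, had signals of 1988, 2006 and 2905 and lay 3.80 ± 0.22 above background (adjusted p = 7.49e-06). Mmp16, which can activate it too, had signals of 4652, 3736 and 4033 (4.67 ± 0.23). Mmp17, which is held in the membrane by a lipid anchor, had signals of 1069, 925 and 999 (2.62 ± 0.22), and Mmp23, whose anchor is at its N-terminal end, had signals of 540, 581 and 519 (1.75 ± 0.21). In each of these 4 genes all arrays lay above the level in the brightest probe set.

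Mmp24, a membrane enzyme known from the nervous system, sat at the background level. Its signals were 157, 175 and 301, with replicates 1 and 3 above the level and replicate 2 below. Its distance of 0.32 ± 0.25 did not pass the test (limma adjusted p = 0.217). With the level at the 90th percentile of the receptor genes it was called (0.67).

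Enzymes that cut versican and related proteoglycans were above background in 6 of 7 cases. Adamts1, whose loss in mice disturbs the outflow of the kidney, had signals of 7776, 7045 and 7892 and lay 5.54 ± 0.22 above background (adjusted p = 1.62e-06). Adamts5, an aggrecanase, had signals of 11100, 11778 and 12130 (6.17 ± 0.20). These 2 genes are neighbours on chromosome 16, and both were above background on every array.

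Adamts9, a versican-cutting enzyme with a GON domain, had signals of 19106, 22413 and 21281 and lay 7.01 ± 0.20 above background (limma adjusted p = 1.04e-06). Adamts20, its closest relative, had signals of 6674, 8034 and 6851 (5.46 ± 0.20). Their shared substrate versican (Vcan) lay 6.91 ± 0.20 above background in its brightest probe set, and 3 of its 8 probe sets were above background. Adamts4, another aggrecanase, had signals of 1032, 1115 and 1140 (2.75 ± 0.20). Adamts15 had signals of 1557, 1343 and 1544 (3.19 ± 0.22). Adamts8, its neighbour on chromosome 9, was below the level on all 3 arrays, with signals of 52.3, 38.1 and 73.5 (-1.62 ± 0.28).

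Among procollagen N-proteinases, which remove the N-terminal propeptides of collagens, Adamts3 was the member measured. Its signals were 3291, 3581 and 3004, and it lay 4.34 ± 0.21 above background (adjusted p = 3.16e-06). Adamts7 and Adamts12 are related enzymes that cut the cartilage protein Comp. Adamts12 had signals of 4920, 5269 and 4481 (4.91 ± 0.21), and Adamts7 of 1406, 1187 and 1080 (2.90 ± 0.24). Both were above the level on every array, and Comp was not (-1.18 ± 0.30).

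Adamts6 and Adamts10 are a related pair linked to fibrillin microfibrils. Adamts6 had signals of 1300, 1300 and 1193 and lay 2.96 ± 0.21 above background. Adamts10 had signals of 619, 953 and 853 (2.29 ± 0.20). Fibrillin-2 (Fbn2) lay 8.42 ± 0.19 above background, and Fbn1 was not analysed here.

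Adamts16, Adamts18 and Adamts19 have less settled substrates, and the calls of Adamts16 and Adamts18 each depended on single arrays. Adamts16 had signals of 324, 263 and 481 (1.08 ± 0.26; limma adjusted p = 0.00641), and the call was lost without replicate 1 (1.00) and without replicate 3 (0.87). Adamts18 had signals of 196, 402 and 314 (0.84 ± 0.22; adjusted p = 0.00855), and its call was lost without replicate 3 (0.82). Both were above the level on all 3 arrays. Adamts19 was below it on all 3, with signals of 36.0, 25.4 and 36.9 (-2.33 ± 0.25).

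Bmp1, the procollagen C-proteinase, had signals of 1690, 1929 and 1722 and lay 3.45 ± 0.20 above background (adjusted p = 6.81e-06). Pcolce, which speeds up its work on collagen, lay 5.47 ± 0.22 above background. Tll1 had signals of 2.84, 2.69 and 43.2, all below the level, and its relative Tll2 lay at -5.25 ± 0.42. The 10 measured substrates of these enzymes were all above background. Among them, Col1a1 lay at 6.32 ± 0.21, Col1a2 at 7.70 ± 0.22, Col3a1 at 8.72 ± 0.19 and Col5a1 at 5.93 ± 0.21.

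Of the inhibitors, Timp2, which also takes part in the activation of Mmp2, had signals of 16705, 20671 and 17548 and lay 6.81 ± 0.20 above background (limma adjusted p = 1.04e-06). Timp3, which binds to matrix and also blocks Adamts4 and Adamts5, had signals of 8552, 8561 and 7248 (5.64 ± 0.22). Reck had signals of 11573, 10432 and 8323 (5.95 ± 0.24). Thus Mmp2, Mmp14, Timp2 and Reck were each above background on every array in the probe set used. Another probe set of Mmp14 (-1.94) lay below the level on all 3 arrays, and another of Timp2 (-0.12) was above it on only 1.

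Timp1, an inducible inhibitor, had signals of 848, 890 and 812 and lay 2.39 ± 0.21 above background (adjusted p = 4.49e-05). Timp4 had signals of 31.8, 62.4 and 45.2 and was below the level on all 3 arrays in both of its probe sets.

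Probe sets of 1 gene often disagreed. Of the 73 probe sets of the group, 39 were above background (53.4%), against 48.6% of all single-symbol probe sets. Among 16 genes called above background with several probe sets, 13 had a probe set at or below the level on at least 1 array (81.2%, against 62.4% of such genes over the whole array). In Mmp2, Mmp23 and Adamts5 all probe sets were above background. In Timp2 it was 5 of 6, and in Timp3 and Mmp16 3 of 4. In Mmp14 and Adamts9 it was 2 of 3, and the remaining probe set of each lay below the level on all 3 arrays.

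Several calls rest on a single probe set. Bmp1 was above background in 1 of 3 probe sets, and the mean over the 3 lay at -0.15. For such means the background level was set anew from the mean over probe sets of each receptor gene. That level was lower, and Adamts1, with 1 probe set, went from 5.54 to 5.75. Adamts18 was above in 1 of 3, with a mean of -1.58. Adamts12 was above in 1 of 2, and the other had signals of 12.4, 3.89 and 34.5. Adamts3, Adamts4, Adamts6, Adamts10 and Adamts16 were also above in 1 of 2, which makes 8 genes of this kind. A further 8 members above background had only 1 probe set: Mmp11, Mmp17, Adamts1, Adamts7, Adamts15, Adamts20, Timp1 and Reck. No other probe set can check those calls. With the mean over probe sets, the calls of Bmp1, Adamts18, Adamts12 (0.77) and Adamts16 (0.52) were lost, and 20 of the 38 genes were above background. Another 10 genes kept the call at a distance over 1.5 times smaller. Among the ADAMTS genes it went from 7.01 to 2.95 for Adamts9, from 6.17 to 4.06 for Adamts5, from 4.34 to 1.93 for Adamts3, from 2.96 to 1.77 for Adamts6, from 2.75 to 1.71 for Adamts4 and from 2.29 to 0.86 for Adamts10. It went from 6.81 to 3.06 for Timp2, from 5.64 to 3.09 for Timp3, from 4.67 to 1.92 for Mmp16 and from 3.80 to 1.27 for Mmp14. The number of probe sets also moved with the share called. It was 8 of 18 for members with 1 probe set (44.4%, against 39.2% of all such genes) and 16 of 20 for members with more (80.0%, against 75.7%). The 7 genes of the run on chromosome 9 are all among the former.

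**Figure D3:**
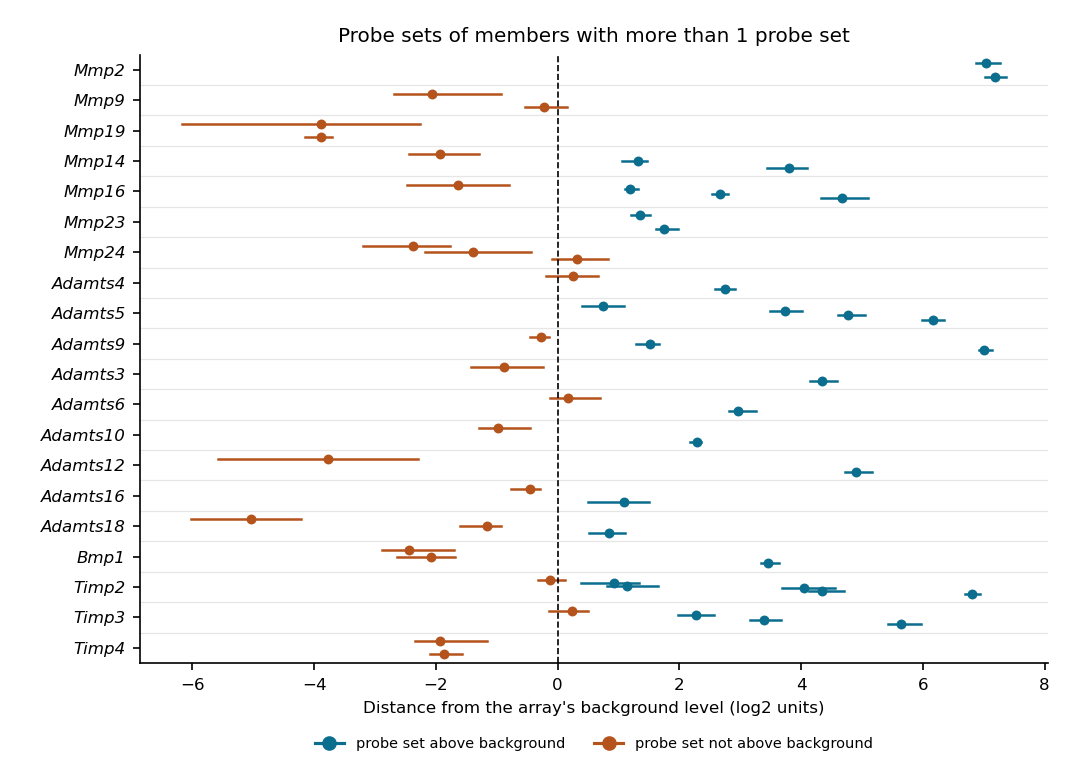
Distance from the background level (log2 units, horizontal axis) of each probe set of the 20 measured genes with more than 1. Points are means of 3 arrays and lines run from the lowest to the highest array; Bmp1 and Adamts18 have 1 probe set above background and 2 not above it, while all 4 probe sets of Adamts5 are above.

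The arrays agreed closely for the genes above background. After each array was centred on its median, the SD over the 3 arrays had a median of 0.13 log2 units over the 24 members above background, against 0.16 over all such genes. It ran from 0.06 in Adamts6 to 0.54 in Adamts18. Members not above background had a median of 0.51, against 0.56, with 2.30 in Tll1.

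Other proteases of the same tissue space and their relatives were read from lists. Genes of the membrane ADAM family, which includes enzymes that shed proteins from the cell surface, were above background in 9 of 10 cases. Not every gene counted there, such as Adam22 and Adam23, makes an active protease. Adam8 lay at 0.69 ± 0.24, Adam9 at 5.76 ± 0.21, Adam10, the main sheddase of Notch, at 6.71 ± 0.20 and Adam12 at 3.38 ± 0.19; Adam33 was not above background (-1.61 ± 0.44). Cysteine cathepsins and their inhibitors, the cystatins, were above in 9 of 10 cases. Cathepsins B (Ctsb, 5.28 ± 0.24), C (Ctsc, 4.00 ± 0.21), H (Ctsh, 4.05 ± 0.20) and K (Ctsk, 4.04 ± 0.21) were among them, and Cst6 was not (-3.02 ± 0.40). Genes of all lists were read from their brightest probe set, and their other probe sets could differ. Probe sets above background were 2 of 4 for Adam10, 1 of 3 for Ctsc and 2 of 2 for Ctsh.

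The list of plasminogen activation, a cascade that can feed into MMP activation, also holds proprotein convertases, which cut other proproteins. It was above background in 4 of 11 cases, and 3 of the 4 are convertases: furin, Pcsk5 (5.25 ± 0.19) and Pcsk6 (1.89 ± 0.21). Of the other 8 genes, 1 was above. This was tissue plasminogen activator (Plat), which had signals of 10380, 11057 and 12027 and lay 6.10 ± 0.20 above background. The other activator, urokinase (Plau), lay at -1.76 ± 0.63 and its receptor Plaur at 0.25 ± 0.22, and neither was above background. Plasminogen itself (Plg) and Serpinf2, an inhibitor of its active form plasmin, were not above it either.

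Proteins that modify these enzymes or resemble them were above background in 7 of 15 cases. Besides Pcolce, Sparc lay at 5.78 ± 0.27, Thbs1 at 3.28 ± 0.22 and Thbs2 at 4.52 ± 0.22, while Pcolce2 (0.35 ± 0.32) and Bsg, an inducer of MMPs (0.51 ± 0.23), were not above background. ADAMTS substrates were above in 3 of 7 cases. These were versican, fibrillin-2 and fibronectin (Fn1, 7.86 ± 0.20), while the cartilage and brain proteoglycans Acan (-0.62 ± 0.32) and Bcan (-1.90 ± 0.40) were not. All 8 substrates listed for MMPs were above background, among them Col4a1 (6.06 ± 0.21), Col4a2 (4.68 ± 0.23), Lama1 (1.69 ± 0.23) and Lamb1 (7.57 ± 0.20). The 3 measured relatives outside the group, Mmp1a, Mmp1b and Tll2, were not above background.

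**Figure D4:**
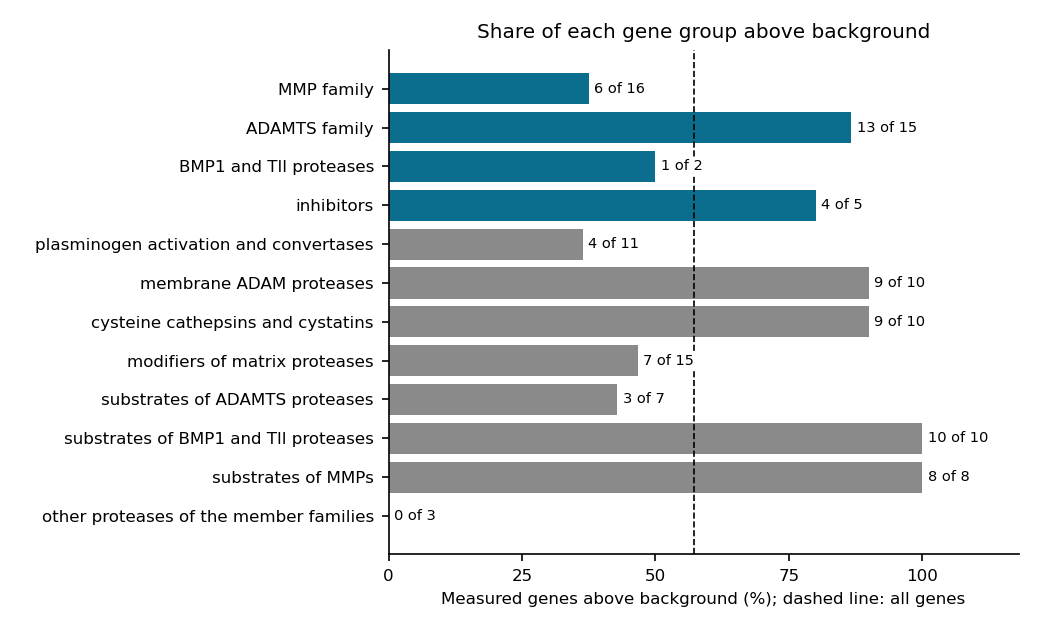
Share of measured genes above background (%, horizontal axis) for the 4 families of the group (blue) and for the lists of related genes (grey), with counts at the bars. The dashed line marks the 57.3% of all genes; the bar of the ADAMTS family (13 of 15) ends to its right and that of the MMP family (6 of 16) to its left.

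Markers of other cell types were read beside these genes. Ureteric bud and collecting duct markers were above background in 3 of 8 cases, with Wnt11 at 2.05 ± 0.23, Calb1 at 1.63 ± 0.28 and Epcam at 4.12 ± 0.24, and with Ret (-0.35 ± 0.25) and Gata3 (0.09 ± 0.36) not above. Endothelial markers were above in 4 of 6 cases, with Kdr at 1.06 ± 0.20, Cdh5 at 1.30 ± 0.22, Tek at 2.85 ± 0.20 and Cd34 at 1.46 ± 0.29. Cap mesenchyme markers were above in 4 of 6 cases, with Six2 at 1.85 ± 0.20, Gdnf at 7.36 ± 0.20, Eya1 at 3.46 ± 0.27 and Itga8 at 5.46 ± 0.24. Cited1 (-4.21 ± 0.19) and Osr1 (-3.14 ± 0.37) were not above. Smooth muscle and mural markers were above in 3 of 5 cases, with Acta2 at 5.36 ± 0.24, Rgs5 at 2.92 ± 0.27 and Cspg4 at 4.11 ± 0.20. Early nephron and tubule markers were above in 1 of 6 cases and erythroid markers in 0 of 3. Fewer cells of a type and less RNA per cell cannot be told apart in sorted pools. The part of other cells in the calls of the proteases was not tested, since no unsorted kidney and no other sorted cells were measured here.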

How the data were processed

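Affymetrix signals of 45101 probe sets in 3 samples were analysed. The authors deposited them as 1-colour intensity values on a linear scale, already scaled: their mean, trimmed by 2% at both ends, was 1500.01 on all 3 arrays. The submitters' processing notes name GCOS; its version was not given in the sources used here. No value was 0 or below, and log2 was taken without a pseudocount.

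Of the probe sets, 34945 had 1 gene symbol in the platform annotation, 932 had several and 9160 had none, and 64 were controls; only the first were used. Entrez IDs of 34741 matched the RefSeq table and no symbol changed. A gene was read from the brightest of its probe sets (mean log2 over the arrays). Log2 signal minus the array's background level was tested above 0 with limma 3.58.1 in R 4.3.3 (lmFit, eBayes with prior df 3.69), one-sided, with Benjamini-Hochberg adjustment over 18193 genes, or over 34945 probe sets for probe set calls. The fit was tested on simulated distances. Of 100 genes each set at distances of 1 and 3, 93 and 100 were called, against 14 of 6658 at 0 or below. The genes at 0 or below kept their measured distances, many of them far below 0. Few of them could be called, so their share is not a rate of false calls. Noise was drawn for each gene separately, so shifts shared by the genes of an array were not simulated. The simulation also took the background level and the brightest probe set as given, so it does not test either choice. SEs carry the spread of the background levels, and the number of arrays limits their precision. Nothing in the labels ties the pools to separate litters, so the p-values reflect the spread among these samples alone, and it may be technical.

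The members, lists and markers were chosen with earlier results of these data known, and no test over a list was made. Every member is named; signals on each array are given for members above background or with a call that changed. From each list up to 4 called genes and 2 others, in list order, were named, shortened for the marker lists; other genes named beside a member were chosen after their values were seen. Promoters came from RefSeq.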

Additional observations from a re-analysis of the deposited data

How the results depend on the processing

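Under 12 alternatives, 20 of the 24 members above background kept their call and direction throughout, as did 12 of the 14 not above it (9 members were left out with the dimmest genes and have no value there). Member distances stayed as in the main fit with 1 level common to the arrays, without cross-hybridising probe sets and without the dimmest genes. Direction was therefore not put to a test there. The limma adjusted p of Mmp2 was 1.04e-06 in the main fit, 4.17e-190 without the dimmest genes and 4.12e-53 without replicate 3. Such values are smaller than so few arrays can bear out, so calls kept there add little. The count of members above background ran from 20 (mean over probe sets) to 25 (level at the 90th percentile), and was 23, 24 and 22 without replicate 1, 2 and 3; that of all genes ran from 9162 to 10976. Direction changed in 4 members. Mmp24 lay at -0.16 with the level at the 99th percentile, at -0.0295 with a level from 41 genes restricted to other tissues, at -0.94 with the mean over probe sets, and at -0.0863 on its lowest array. Mmp9 lay at 0.12 with the level at the 90th percentile, and the mean over probe sets placed Adamts18 at -1.58 and Bmp1 at -0.15. Adamts16 and Adamts18 also lost their calls at the 99th percentile (0.61 and 0.36), and Adamts18 with the tissue-restricted level (0.50). The cause was not tested. No paired analysis was possible because there is 1 group. Signal close to background limits what can be said of Mmp24, Mmp9, Adamts16 and Adamts18.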
